A study of Mus musculus with 8 samples.

Results

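A set of 7 genes of MHC class II antigen presentation, the route by which a cell shows peptides from endosomes to CD4 T cells, were followed through every library of a mouse duct study. They are H2-Aa, H2-Ab1, H2-Eb1, Cd74, Ciita, H2-DMa and H2-DMb1, taken by gene symbol as 7 of the 31228 genes in the deposited expression table, and all 7 were found. The study compared extrahepatic bile duct with pancreatic duct, each as fresh duct tissue labelled epithelium and as organoids, which are 3-dimensional epithelial cultures. Poly(A)-selected RNA was sequenced from 1 bile duct epithelium, 1 pancreatic duct epithelium, 3 bile duct organoids and 3 pancreatic duct organoids, and no control sample was included. The epithelium libraries are called fresh bile duct and fresh pancreatic duct below, and together the epithelia. Every library is labelled C57BL/6 mouse, and the labels give no age, sex or treatment. Ducts were dissected, minced and digested with collagenase IV. Epithelia went from digestion into Trizol with no sorting step in the labels, so other cells of the duct wall could be carried along. Organoids grew in Matrigel with EGF, R-Spondin-1, Noggin, FGF10, nicotinamide, N-acetylcysteine and B27, with Wnt3A and Y27632 at the start, and were taken after 3 to 4 passages. The labels do not say whether the organoids of an organ came from separate animals, so their spread may be technical.

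A class II molecule is a pair of chains, and in the mouse the I-A pair is encoded by H2-Aa and H2-Ab1 and the I-E pair by H2-Ea and H2-Eb1. The invariant chain, Cd74, fills the groove during assembly and guides the pair to endosomes, where proteases cut it down and H2-DM, built from H2-DMa and H2-DMb chains, exchanges the remaining fragment for a peptide. Transcription of these genes depends on the coactivator Ciita, which binds no DNA itself but is recruited by RFX, NF-Y and CREB proteins on a shared promoter module of X and Y boxes. Dendritic cells, B cells and macrophages carry class II constantly, and epithelial cells can gain it under interferon gamma.

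Levels below are scaled FPKM, that is deposited reads per unit of exon length and library size, further scaled between libraries. The deposited values resolve into whole reads, with 12876470 reads for fresh bile duct, 15455993 for fresh pancreatic duct and 15405377 to 20828217 for the organoids. The labels' cell type was checked first. The 8 markers of duct and simple epithelium summed to 2315 in fresh bile duct, 509.6 in fresh pancreatic duct and 4322 to 11027 in organoids. Both epithelium libraries also held acinar enzyme RNA (sums of 15908 and 32360 over 6 genes, against at most 7.66 in an organoid) and RNA of fibroblasts, endothelium and leukocytes. Intestinal absorptive markers summed to 468 in bile duct and 19.5 in fresh pancreatic duct. Bile duct organoid 1 and pancreatic duct organoid 2 resembled each other more than the rest of their own groups. Over the genes tested between organoids, their deviations from their group means correlated at r = 0.649. The chi-square per degree of freedom between their read numbers was 39.4. From either of them to bile duct organoid 2, bile duct organoid 3 or pancreatic duct organoid 3 it was 116 to 131. From pancreatic duct organoid 1 it was 74.2 to bile duct organoid 1 and 67.7 to pancreatic duct organoid 2. Other pairs across the organs were at least as close. Pancreatic duct organoid 3 lay at 36.0 from bile duct organoid 3 and at 38.9 from bile duct organoid 2.

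One measurement goes against a label. The gene for the alpha chain of I-E, deposited as H2-Ea-ps, is silent in C57BL/6 mice because of a deletion at its promoter, yet the pancreatic duct library labelled with that strain had 95.1 FPKM as deposited, from at least 504 reads. Fresh bile duct had 0.906 FPKM, from at least 4 reads, and all 6 organoids were at 0. Mice of some other MHC haplotypes express this gene and differ in the sequence of H2-Aa, H2-Ab1 and H2-Eb1. Whether the animals differed in haplotype, and whether reads of another allele were lost in mapping, was not tested, and every difference between the epithelia below rests on this library.

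Of these genes, 5 lie in the MHC on chromosome 17, in the order H2-DMa (ENSMUSG00000037649, 34135182 to 34139101, GRCm38, plus strand), H2-DMb1 (ENSMUSG00000079547, 34153072 to 34160230, plus), H2-Ab1 (ENSMUSG00000073421, 34263209 to 34269418, plus), H2-Aa (ENSMUSG00000036594, 34282744 to 34287827, minus) and H2-Eb1 (ENSMUSG00000060586, 34305877 to 34316199, plus). Ciita (ENSMUSG00000022504) is on chromosome 16 at 10488178 to 10527564, and Cd74 (ENSMUSG00000024610) is on chromosome 18 at 60803848 to 60812646, both on the plus strand. The deposited span of H2-Eb1 overlaps the antisense gene Gm20513 and that of Ciita overlaps Dexi on the other strand. Use of strand in counting is not given in the sources used here, so reads of such pairs cannot be told apart. H2-DMb1 lies beside a near-identical copy, H2-DMb2, and reads could be split between them, so both values are uncertain.

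Every value rests on the exon length behind it. For all 7 genes the length that turned the deposited FPKM into whole reads differed from that of the GENCODE M21 annotation and was taken from the values themselves. It ran from 1184 bases for H2-Eb1 to 5254 bases for Ciita.

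Sequences like the boxes of the promoter module occur before the start sites of H2-Aa, H2-Eb1 and H2-DMb1, which are shown because their RefSeq windows hold a match to both motifs given here. Each line is the 90 bases from 110 to 21 bases before the RefSeq start site (GRCm38.p6), 5′ to 3′ on the gene's own strand. The regions are chr17:34287844-34287933 (minus strand), chr17:34305757-34305846 (plus) and chr17:34153081-34153170 (plus). Capitals mark first a match to CTNGNAACT, an X-box-like motif, and then ATTGG, the reverse complement of the CCAAT of the Y box.
H2-Aa: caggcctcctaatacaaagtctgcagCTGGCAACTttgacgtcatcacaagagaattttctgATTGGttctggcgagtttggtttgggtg
H2-Eb1: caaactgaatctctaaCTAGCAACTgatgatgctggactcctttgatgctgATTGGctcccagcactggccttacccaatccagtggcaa
H2-DMb1: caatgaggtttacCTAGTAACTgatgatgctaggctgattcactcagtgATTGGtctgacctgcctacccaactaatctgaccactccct

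The first bases of the motifs were 36, 35 and 36 bases apart in H2-Aa, H2-Eb1 and H2-DMb1. Among 32851 RefSeq windows, each from 250 bases before to 50 after a start site, CCAAT on either strand occurred in 37.4%. CTNGNAACT on either strand occurred in 4.10%, and both at a spacing of 30 to 40 bases in 24 windows (0.0731%), these 3 among them. CTNGNAACT was written after these windows had been read, and the spacing range was not planned and brackets their spacings. The presence of both in these windows is therefore a description. The X-box core AGNAACNG, which overlaps it, occurred in 17.4% of windows and in those of H2-Eb1 and H2-DMb1 but not H2-Aa. The windows listed for H2-DMa, which lie far from its deposited start, held no match to CTNGNAACT or AGNAACNG, and 1 of them held a CCAAT. The RefSeq start of H2-DMb1 lies 119 bases downstream of its deposited start.

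In the epithelia, Cd74 led the set and ranked 56th and 105th among all genes by FPKM in bile duct and pancreatic duct. Its scaled FPKM was 694 in fresh bile duct and 373 in fresh pancreatic duct. Organoids 1, 2 and 3, in that order throughout, gave 0.330, 0 and 0.0361 for bile duct and 0.461, 0.482 and 0.0638 for pancreatic duct. The invariant chain thus stood among the most abundant transcripts of both fresh ducts and under 1 FPKM in every culture. These organoid levels are 0 to 12 reads per library, against 11878 and 7503 reads in the epithelia.

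The chains of I-A stood below Cd74 and H2-Eb1 in both epithelia. H2-Ab1 had 256 and 33.8 scaled FPKM in fresh bile duct and fresh pancreatic duct, against 0.604, 0 and 0.0311 in bile duct organoids and 0.198, 0.969 and 0 in pancreatic duct organoids. H2-Aa had 238 and 52.6, against 0.124, 0 and 0 and then 0, 0.0907 and 0. Both chains were therefore highest in fresh bile duct, and their residual organoid reads came mainly from bile duct organoid 1 and pancreatic duct organoid 2. For H2-Aa these residual reads were 4 and 3, and the other 4 organoids had none.

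H2-Eb1, the beta chain of I-E, stood at 305 scaled FPKM in fresh bile duct and 129 in fresh pancreatic duct. Its organoid values were 0.147, 0.0812 and 0.258 for bile duct and 0.0549, 0.335 and 0.0760 for pancreatic duct. It was the only one of the 3 classical chains with reads in all 6 organoids, from 1 to 7 per library.

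The peptide exchange factor H2-DM was less abundant in the epithelia and less depleted in culture. H2-DMa had 26.5 and 14.7 scaled FPKM in fresh bile duct and fresh pancreatic duct, 0.390, 0.791 and 1.30 in bile duct organoids and 0.673, 0.863 and 1.23 in pancreatic duct organoids. H2-DMb1 had 34.3 and 8.35 in the epithelia, 0.470, 0.0324 and 0.103 in bile duct organoids and 0.175, 0.687 and 0.121 in pancreatic duct organoids. H2-DMa was detected in each organoid by 11 to 45 reads, more than H2-DMb1 in 5 of them. Its highest organoids were bile duct 3 and pancreatic duct 3, and its lowest was bile duct 1, where H2-DMb1 had 12 reads.

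Ciita, the coactivator, was the lowest member in every epithelium, at 7.63 for fresh bile duct and 3.21 for fresh pancreatic duct (487 and 241 reads). In bile duct organoids it had 0, 0 and 0.0194, and in pancreatic duct organoids 0.0124, 0 and 0.0257. The 6 organoids together gave 6 reads. At this depth 3 organoids had none, so its presence there was at the limit of detection.

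**Figure D1:**
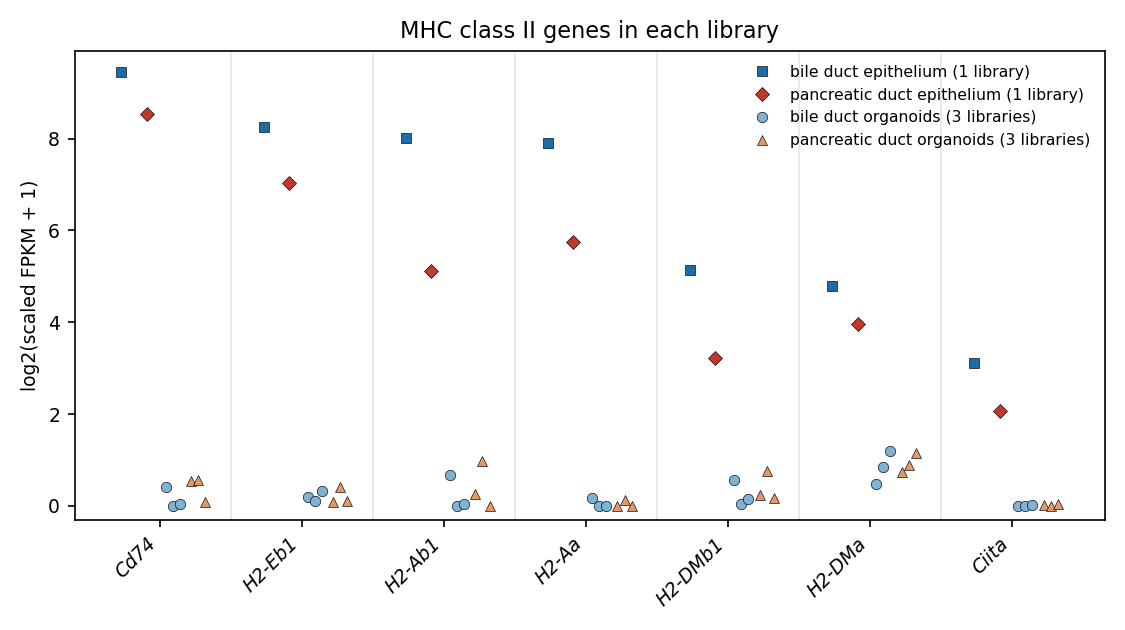
Each point is a library, the horizontal axis lists the 7 class II genes and the vertical axis gives log2(scaled FPKM + 1). Squares and diamonds are the single epithelium libraries of bile duct and pancreatic duct, circles and triangles the 3 organoids of each. Every gene is higher in both epithelia than in all 6 organoids, and fresh bile duct lies above fresh pancreatic duct for each.

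The change from fresh duct to organoid was tested over all genes with limma, setting the 2 epithelia against the 6 organoids with the organ as a term. Of the 7 members, 6 passed the filter of 1 FPKM in at least 2 libraries only through the epithelia, and so had to differ. H2-DMa, which also passed through the organoids, was higher in the epithelia by 3.49 on the log2(scaled FPKM + 1) scale (SE 0.27, limma adjusted p = 3.93e-05). Cd74 was higher by 8.71 (SE 0.28, limma adjusted p = 5.43e-07) and Ciita by 2.58 (SE 0.21, limma adjusted p = 5.59e-05). The others lay between, with H2-Eb1 at 7.43, H2-Aa at 6.77, H2-Ab1 at 6.24 and H2-DMb1 at 3.87 and limma adjusted p-values of 8.89e-07, 1.29e-05, 1.81e-04 and 2.80e-04. Among the 14919 genes tested, 26.6% were called higher in the epithelia, 32.7% lower and 59.2% either way, with a median of -0.12. Because the filter fixed the calls of 6 members, only that of H2-DMa can be read against these shares. With no filter, all 7 were called higher, where 22.8% of 29890 genes were. The log2 scale with 1 added understates the change of genes near 0. The difference of Ciita was 5.54 with 0.1 added and 8.77 by limma voom on reads, and that of H2-Aa 9.78 and 12.0. Without either epithelium 1 member, H2-DMa, still passed the filter and was called.

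Within each organ the folds could be taken from reads. Fresh bile duct exceeded the pooled bile duct organoids 6261-fold for Cd74 (95% counting interval 3297 to 13695), 1890-fold for H2-Eb1 (1055 to 3788), 1341-fold for H2-Ab1 (848 to 2265), 184-fold for H2-DMb1 (112 to 323) and 31.3-fold for H2-DMa (24.7 to 40.1). Fresh pancreatic duct exceeded its organoids 1210-fold for Cd74 (813 to 1890), 845-fold for H2-Eb1 (458 to 1764), 92.8-fold for H2-Ab1 (65.5 to 136), 26.4-fold for H2-DMb1 (17.4 to 41.5) and 15.3-fold for H2-DMa (12.1 to 19.6). H2-DMa had the smallest fold of these 5 in bile duct, where its interval lies below theirs, while in pancreatic duct its interval overlaps that of H2-DMb1. Folds for H2-Aa and Ciita rest on 2 to 4 organoid reads per organ. They were 6425 (2508 to 23591) and 1155 (318 to 9565) in bile duct, and for H2-Aa 1816 (620 to 8815) in pancreatic duct, where Ciita with 4 reads had 233 (89.9 to 863). Single organoids decided much of these folds. Without bile duct organoid 1, Cd74 and H2-Ab1 kept 1 organoid read each, for folds of 39531 (7094 to 1.56e+06) and 16940 (3039 to 6.69e+05), H2-DMb1 kept 4 (fold 515, 200.1 to 1896) and H2-Aa kept none. Without bile duct organoid 2 the folds of Cd74, H2-Aa, H2-Ab1 and Ciita were 4001, 4106, 857 and 738, and without bile duct organoid 3 that of H2-Aa was 4237 and Ciita kept no read. Without pancreatic duct organoid 2, H2-Ab1 was at 417, H2-Eb1 at 1917 and H2-DMb1 at 58.3, and H2-Aa kept no organoid read. Without pancreatic duct organoid 3, Cd74 was at 789, H2-Aa at 1086, H2-Ab1 at 55.5 and Ciita at 558. In bile duct H2-DMa ranged from 25.5 to 43.5 and stayed lowest of the 7, and in pancreatic duct it ranged from 13.7 to 19.0. In each organ all 7 were at least 2-fold above the mean of the 3 organoids on the log2 scale and higher than each of them, as were 24.3% of genes in bile duct and 23.5% in pancreatic duct. With 1 epithelium per organ these folds have no replicate check, and their intervals cover counting error only.

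Markers of leukocytes, fibroblasts, endothelium and acinar cells all moved with the class II genes. Fibroblast markers summed to 1278 in fresh bile duct, 1485 in fresh pancreatic duct and 0.151 to 2.54 in organoids, and endothelial markers to 506, 851 and 0.209 to 0.389. The 6 pan-leukocyte markers summed to 113 in fresh bile duct, 99.8 in fresh pancreatic duct and 0.590 to 4.17 in organoids. Macrophage markers summed to 353, 254 and 2.69 to 12.8, and dendritic cell markers to 23.0, 16.2 and 0.166 to 0.878. The markers of these lists that were tested were called higher in the epithelia. They were 6 of 6 pan-leukocyte, 10 of 10 macrophage, 4 of 4 dendritic, 6 of 6 B cell and 4 of 4 T cell genes. Fibroblasts, endothelium and acinar cells had 6 of 6 each, beside 26.6% of all genes tested. Most of these markers passed the filter only through the epithelia, so their counts cannot be read against that share. Without fresh bile duct Cd68 of macrophages and Lck of T cells were no longer called (limma adjusted p = 0.217 and 0.136), and without fresh pancreatic duct Lck was not (0.0587). Some markers of these lists were read in every organoid. Among them were Cd68 of macrophages (2.03 to 10.8 scaled FPKM, 45 to 240 reads) and Csf1r of macrophages (0.167 to 3.47, 17 to 261 reads). Others were the pan-leukocyte Cd53 (0.447 to 3.97, 12 to 122 reads) and Lck (0.421 to 1.43, 19 to 72 reads). Mrc1 of macrophages had 19 to 89 reads, Zbtb46 of dendritic cells 17 to 74 and Fcmr of B cells 2 to 14. Col1a1 of fibroblasts had 10 to 129, Plvap of endothelium 6 to 12 and Cela1 of acinar cells 30 to 162. Markers at 0 in every organoid were Xcr1, Clec9a, Itgax and Cd209a of dendritic cells, Cd163 of macrophages, and Cd4 and Cd8a of T cells. So were Lum of fibroblasts and Cpa1, Pnlip and Amy2a5 of acinar cells. The part of these cells in the class II levels was not tested. In bulk RNA, fewer cells of a type and less class II RNA per cell cannot be told apart.

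The 8 duct epithelium markers went the other way, all 8 called lower in the epithelia, beside 32.7% of all genes, with a median log2 difference of -2.54. Krt19 had 458 and 90.7 scaled FPKM in fresh bile duct and fresh pancreatic duct and 655 to 2098 in organoids (limma adjusted p = 0.0160), and Epcam had 231 and 43.0 against 335 to 1039 (limma adjusted p = 0.0176). These calls rest on fresh pancreatic duct, without which the limma adjusted p-values were 0.212 and 0.245, and that of Krt8 0.102.

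Fresh bile duct and fresh pancreatic duct were then set side by side, 1 library each and therefore with no test between the organs. All 7 genes had higher levels in fresh bile duct, and 5 of them were at least 2-fold higher on the log2(scaled FPKM + 1) scale, where 8.79% of the 15092 genes with at least 1 FPKM in an epithelium were that much higher in bile duct and 4.49% in pancreatic duct. The median log2 difference was 1.23 for the members and -0.04 for all these genes. The ratios were uneven. H2-Ab1 was 7.57-fold higher (95% counting interval 7.02 to 8.16), H2-Aa 4.53-fold (4.27 to 4.80), H2-DMb1 4.11-fold (3.47 to 4.89), Ciita 2.38-fold (2.03 to 2.78), H2-Eb1 2.36-fold (2.24 to 2.49), Cd74 1.86-fold (1.81 to 1.92) and H2-DMa 1.80-fold (1.57 to 2.07). In this order H2-DMb1 and H2-Aa, Ciita and H2-Eb1, and Cd74 and H2-DMa do not differ beyond counting error, and the other neighbours do. H2-DMb2, with which H2-DMb1 may share reads, went the other way (ratio 0.462, 0.373 to 0.569). The place of H2-DMb1 in this order is therefore uncertain.

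The balance between chains therefore differed between the libraries. H2-Ab1 stood at 0.369 of the Cd74 level in bile duct and 0.0908 in fresh pancreatic duct, and H2-Aa at 0.343 and 0.141. H2-Eb1 stood at 0.439 and 0.346 of Cd74, H2-DMb1 at 0.0495 and 0.0224, and H2-DMa at 0.0382 and 0.0394. Relative to the invariant chain, H2-Ab1, H2-Aa and H2-DMb1 were each less than 0.5 times as high in pancreatic duct and H2-Eb1 was slightly lower, while H2-DMa kept nearly the same proportion. The beta chain of I-E was 1.19 times the beta chain of I-A in bile duct and 3.81 times in pancreatic duct. H2-Ea-ps, the alpha chain of I-E, was 0.797 of H2-Eb1 in pancreatic duct and 0.00315 in bile duct. The DM beta chains also changed places, since H2-DMb1 was 5.61 times H2-DMb2 in bile duct and 0.631 times in pancreatic duct, with H2-DMb2 at 6.11 and 13.2 scaled FPKM.

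**Figure D2:**
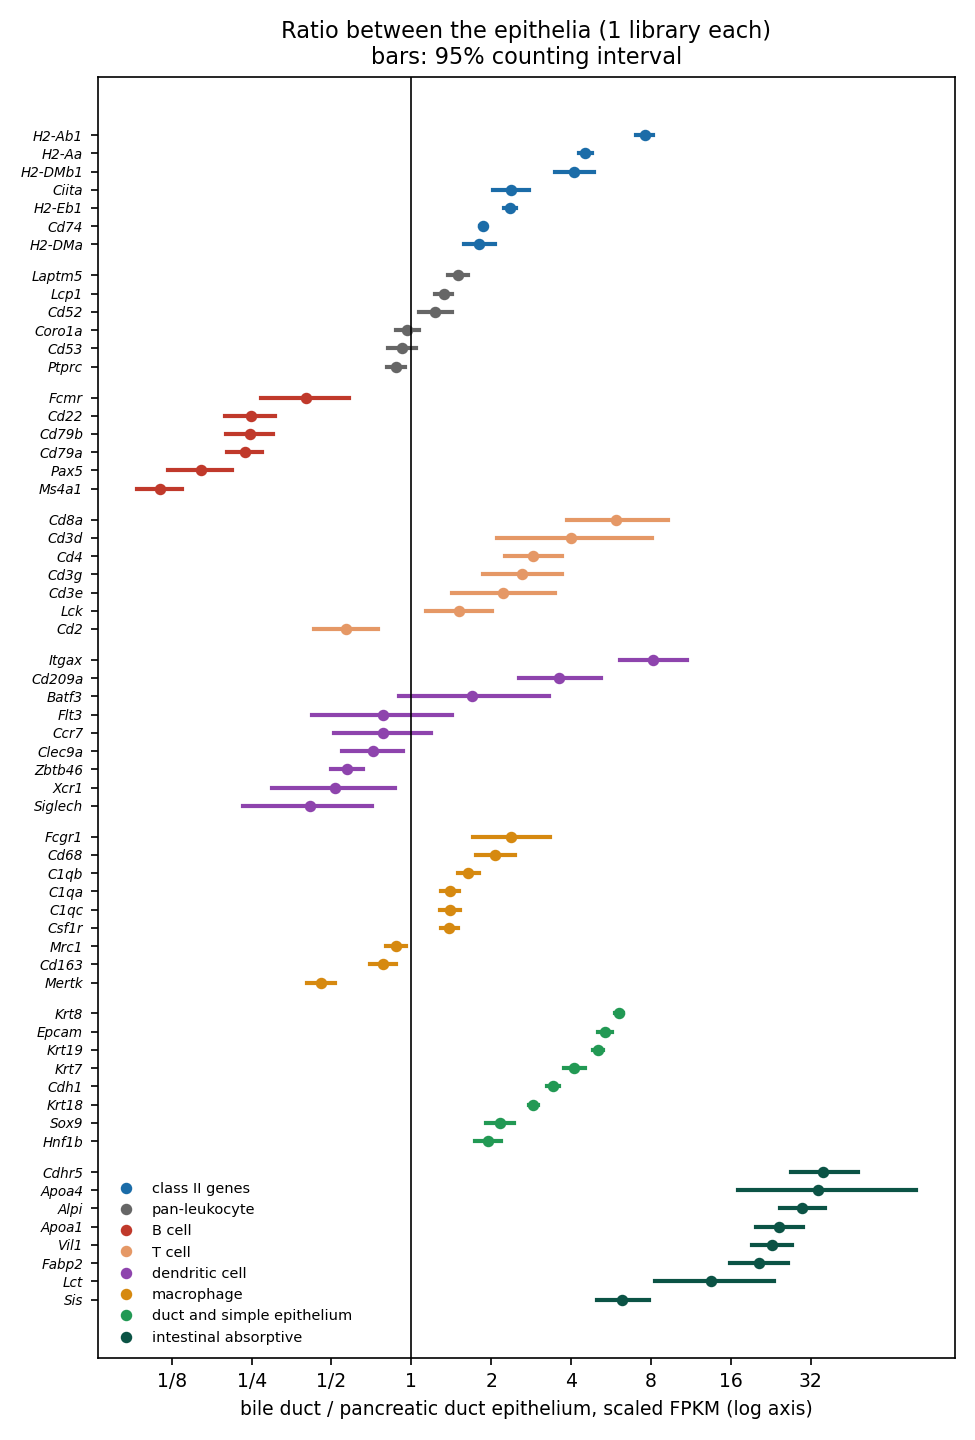
Ratio of scaled FPKM in fresh bile duct to fresh pancreatic duct on a log axis for the 7 class II genes and for marker lists of cell types, 1 library per organ, with bars for the 95% counting interval. Genes without recovered read numbers, such as Adgre1, and 1 B cell gene not reported here have no point. The class II genes lie between 1.80 and 7.57, B cell genes below 1, and intestinal absorptive genes between 6.24 and 35.6.

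Markers of the cells that carry class II did not share one ratio. The pan-leukocyte genes were close to even, with Ptprc at 0.874 of the pancreatic duct level (0.809 to 0.944) and Laptm5 at 1.5 (1.37 to 1.64). All 7 B cell genes had a ratio below 0.5, for example Fcmr at 0.402 (higher in fresh pancreatic duct) and Cd79a with 11.5 and 48.8 scaled FPKM. Macrophage genes ranged from 0.458 for Mertk to 2.37 for Fcgr1, with C1qa at 1.40. Among dendritic cell genes Itgax was at 8.13 (6.13 to 11.0) and Cd209a at 3.61 (2.55 to 5.19), while Clec9a was at 0.715 (0.546 to 0.931) and Zbtb46 at 0.572 (0.497 to 0.659). All 8 intestinal absorptive genes and 7 of 8 duct epithelium genes were at least 2-fold higher in bile duct, beside the 8.79% of all genes given above. Per unit of each of the 6 pan-leukocyte genes in turn, Cd74 was from 1.24 (per Laptm5) to 2.13 (per Ptprc) times as high in bile duct as in pancreatic duct, and Ciita from 1.58 to 2.72 times. The part of any of these cells in the class II difference was not tested.

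The organoid groups, which have 3 libraries each, were compared next. None of the 7 reached 1 FPKM in 3 organoids, so none entered the limma test of bile duct against pancreatic duct organoids, in which 0 of 12106 genes (0%) passed an adjusted p of 0.05 and 310 (2.56%) an unadjusted p of 0.05. Without pancreatic duct organoid 3, 11 genes passed the adjusted threshold, no member among them. Without the filter, the smallest of the 7 limma adjusted p-values was 0.986. The exact two-sided permutation test on each gene, 3 organoids against 3, gave p-values from 0.2 for Cd74 to 1 for H2-Aa, with 0.1 the smallest this design allows, and adjusted values from 0.933 to 1 over the 7 tests. For Cd74 the bile duct organoids averaged 0.122 ± 0.181 and the pancreatic duct organoids 0.336 ± 0.236, with 0.212 ± 0.340 and 0.389 ± 0.512 for H2-Ab1 and 0.828 ± 0.458 and 0.923 ± 0.285 for H2-DMa (scaled FPKM, SD, n = 3 each). The groups overlapped for every member. A difference between organoid groups was not detectable at 0 to 45 reads per gene and library.

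**Figure D3:**
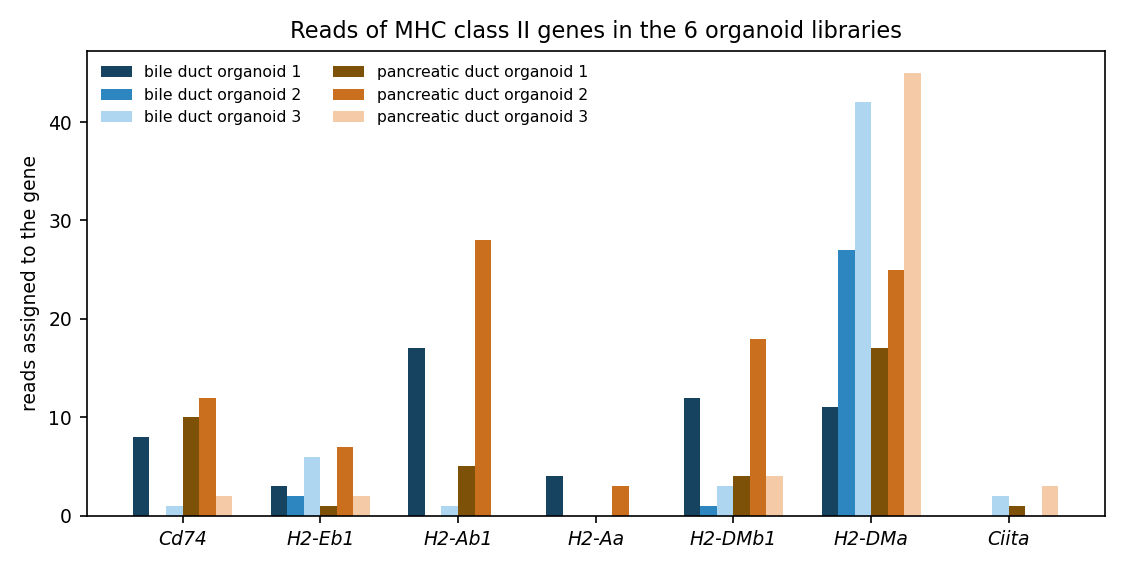
Bars give the reads assigned to each of the 7 class II genes in each of the 6 organoid libraries, blue for bile duct and brown for pancreatic duct. H2-Ab1 and H2-DMb1 are highest in bile duct organoid 1 and pancreatic duct organoid 2, and H2-DMa is highest in the organoids numbered 3.

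The spread among organoids differed from gene to gene. H2-Ab1, H2-DMb1 and H2-Aa had their highest organoid reads in bile duct organoid 1 and pancreatic duct organoid 2. These libraries resembled each other over many genes, as did other pairs. Cd74, H2-Eb1, Ciita and H2-DMa did not, with Cd74 at 10 reads in pancreatic duct organoid 1 against 8 in bile duct organoid 1, and Ciita at 0 in both. H2-Ab1 had 17 reads in bile duct organoid 1 and 28 in pancreatic duct organoid 2, and 0 to 5 in the other 4 organoids. H2-DMb1 had 12 and 18 in the same organoids and 1 to 4 elsewhere, and H2-DMb2 had 16 and 21, and 1 to 5 elsewhere. Gbp2, a guanylate binding protein of the interferon response, had 93 and 43 reads in these organoids and 3 to 11 in the others, and Cd40, a costimulatory receptor, had 120 and 48 against 5 to 10. Summed leukocyte markers moved with this pair in part. In bile duct organoid 1 and pancreatic duct organoid 2, the pan-leukocyte sum was 1.61 and 4.17 against 0.590 to 1.51 in the other organoids, the dendritic cell sum 0.742 and 0.878 against 0.166 to 0.359, the B cell sum 0.550 and 0.746 against 0.259 to 0.309 and the T cell sum 1.46 and 1.39 against 0.437 to 0.781. Macrophage sums were 6.20 and 12.8 against 2.69 to 6.27. Single genes carried some of these sums, since Cd53 made up 3.97 of the 4.17 and Cd68 10.8 of the 12.8 in pancreatic duct organoid 2. The pan-leukocyte Ptprc was at most 0.00788 scaled FPKM in any organoid, and Itgax, Cd209a, Clec9a, Xcr1, Cd4 and Cd8a were at 0 in all 6. The part of leukocytes in this spread was not tested. These organoids were picked for mention after their values were seen, and no test was made.

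The RNA of the proteins that hold Ciita on class II promoters is given next. Of the 12 other class II genes and promoter factors, 9 were tested, of which 3 were called higher in the epithelia, 1 lower and 5 neither, with a median of 0.05, beside 26.6% and 32.7% of all genes tested called higher and lower. H2-DMb2 was higher by 3.02 (limma adjusted p = 1.15e-04), as was H2-Ob, a chain of the DM inhibitor H2-DO, both having passed the filter only through the epithelia. The promoter factors were read in every organoid, unlike Ciita. The RFX subunit Rfxap had 5.29 and 6.06 scaled FPKM in the epithelia against 10.1 to 11.9 in organoids, lower in the epithelia by 0.86 (SE 0.10, limma adjusted p = 3.69e-04). Rfxank, another RFX subunit, was higher by 0.48 (limma adjusted p = 0.0189), with 2.08 in each epithelium and 0.941 to 1.59 in organoids, a call lost without fresh bile duct (limma adjusted p = 0.198), without fresh pancreatic duct (0.155) or without the filter (0.0568). Rfx5 had 2.80 and 2.56 in the epithelia against 2.28 to 4.77, and the NF-Y subunits Nfya and Nfyc 7.01 and 9.0 against 7.81 to 13.3, and 12.2 and 12.3 against 9.76 to 13.4. The epithelial values of Rfx5 and Nfyc lay within the range of the organoids, and neither gene was called (limma adjusted p = 0.398 and 0.796).

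**Figure D4:**
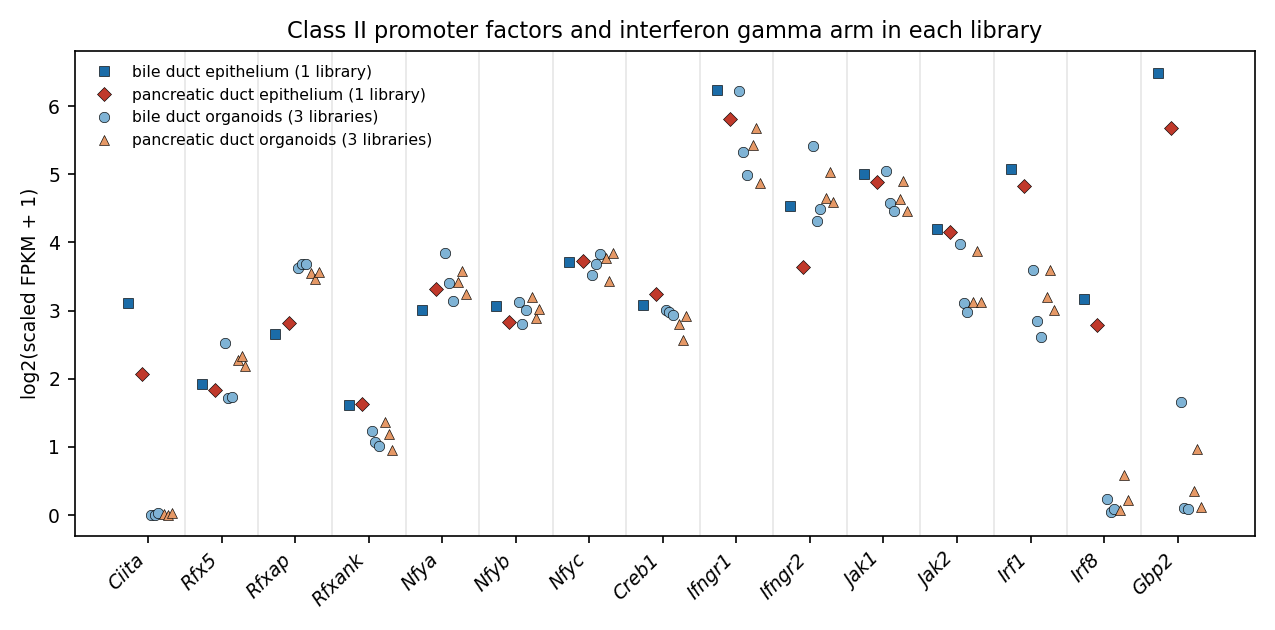
Points show log2(scaled FPKM + 1) of Ciita, its partner promoter factors and genes of the interferon gamma arm in each of the 8 libraries, with symbols for the single epithelia and for the 3 organoids of each organ. Ciita is near 0 in all organoids, the RFX, NF-Y and CREB genes and the receptor and kinase genes are present in all 8 libraries, and Irf1, Irf8 and Gbp2 are higher in the epithelia.

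Interferon gamma is the best known inducer of Ciita outside leukocytes, and its arm was measured as 12 genes. Of these, 10 were tested, with 5 called higher in the epithelia, 0 lower and 5 neither, and a median of 1.31, beside the same shares of all genes. The receptor and kinase genes were expressed in all libraries. Ifngr1 had 74.5 and 55.1 scaled FPKM in the epithelia against 28.3 to 73.4 in organoids, Ifngr2 22.1 and 11.4 against 18.8 to 41.6, and Jak1 31 and 28.7 against 20.9 to 31.9, none of them called (limma adjusted p = 0.164, 0.130 and 0.243), although Ifngr1 passed without bile duct organoid 1 (0.0408). Jak2, the other kinase, had 17.3 and 16.8 against 6.86 to 14.7 and missed the threshold (limma adjusted p = 0.0609), but passed with median ratio scaling (0.0300), without bile duct organoid 1 (0.0153) and without pancreatic duct organoid 2 (0.0303). Response genes made up the 5 calls. Irf1, a transcription factor of the response, had 32.7 and 27.4 against 5.09 to 11.1, a difference of 1.81 (SE 0.29, limma adjusted p = 0.00144). Gbp2 had 88.6 and 50.04 against 0.0607 to 2.15, a difference of 5.53 (limma adjusted p = 6.43e-05). Gbp2, Irf8 and Cxcl10, 3 of the 5 called genes, passed the filter only through the epithelia. That favours such a call, so these 3 cannot be read against those shares. Socs1, an inhibitor induced by the response, was not called, with 2.56 and 1.89 against 1.00 to 2.61 (limma adjusted p = 0.585). Ifng itself had 0.699 in bile duct and 0.0541 in fresh pancreatic duct and was at 0 in all organoids, too low to be tested. Cxcl9, a chemokine of the same response, had 8.24 and 0.998 in the epithelia, 8.26-fold higher in bile duct (5.98 to 11.6). Many leukocytes also express Irf8 and Gbp2, and the part of those cells was not tested.

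Endosomal processing genes, which supply the peptides, were largely expressed in the organoids too. Of 16 tested, 7 were called higher in the epithelia, 0 lower and 9 neither, with a median of 0.41, beside 26.6% and 32.7% of all genes called higher and lower. Ctsd and Ctsz, proteases of most cells, had 76.5 to 172 and 86.4 to 113 scaled FPKM in organoids, against 74.8 and 75.2, and 96.8 and 87.7, in the epithelia (limma adjusted p = 0.218 and 0.590). Ctsb was higher in the epithelia by 0.76 (SE 0.21, limma adjusted p = 0.0175, and 0.193 without fresh bile duct), and Cst3, the protease inhibitor cystatin C, by 2.78 (SE 0.18, limma adjusted p = 1.78e-05). Lgmn, a protease, and Lamp2, a lysosomal membrane protein, were higher by 1.43 and 1.23 (limma adjusted p = 0.00816 and 0.0124), and lost their calls without fresh bile duct (0.0947 and 0.129), Lamp2 also without fresh pancreatic duct (0.0537). Lamp1, its relative, had 140.5 and 143 against 92.3 to 142 (limma adjusted p = 0.212). Ctss, the protease that removes the last part of the invariant chain in antigen-presenting cells, was unlike these. It had 101 and 62.0 in the epithelia and at most 0.143 in an organoid. March1 (ENSMUSG00000036469), a ligase that takes class II off the surface of leukocytes, had 1.68 and 1.52 against at most 0.0244, whereas its relative March8 (ENSMUSG00000025702) had 10.0 and 9.41 against 10.6 to 13.2 (limma adjusted p = 0.0590, 0.00906 with FPKM as deposited and 0.0427 without bile duct organoid 3). Napsa, an aspartic protease, had 4.33 and 8.87 against 0.0904 to 0.525. Ctss, March1 and Napsa were the 3 genes of this list that passed the filter only through the epithelia and so had to differ. Ifi30, a reductase that opens disulfide bonds of antigens in antigen-presenting cells, had 1.51 and 1.21 against 0.208 to 1.78 and was not called (limma adjusted p = 0.251).

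Co-signalling molecules accompany class II at the contact with T cells. Of 11 listed, 8 were tested, with 4 called higher in the epithelia, 2 lower and 2 neither, and a median of 1.29, beside 26.6% and 32.7% of all genes called higher and lower. Cd274 (PD-L1), an inhibitor of T cells, had 11.9 and 8.58 scaled FPKM in fresh bile duct and fresh pancreatic duct and 0.137 to 0.353 in organoids, a difference of 3.19 (SE 0.13, limma adjusted p = 1.43e-06). Icosl and Cd83 were higher by 2.34 and 2.73 (limma adjusted p = 4.15e-06 and 1.27e-06). These and Cd86, the 4 higher calls, passed the filter only through the epithelia. That favours such a call, so they cannot be read against those shares. Cd40 also passed only there, with 1.14 and 2.69 against 0.0748 to 2.05, and was not called (limma adjusted p = 0.106). It passed the threshold by limma voom on reads (adjusted p = 0.0381) and without bile duct organoid 1 (limma adjusted p = 0.00398). Cd276 (B7-H3) was lower in the epithelia, with 5.20 and 5.82 against 16.9 to 21.8 (difference -1.66, SE 0.12, limma adjusted p = 2.35e-05), and so was Tnfsf9, the ligand of 4-1BB, with 4.08 and 2.11 against 6.76 to 14.9 (difference -1.45, limma adjusted p = 0.00414, and 0.0681 without fresh pancreatic duct). Vtcn1 (B7-H4) was not called and spread widely among organoids, from 0.752 to 16.3, with the highest values in bile duct organoid 1 and pancreatic duct organoid 2.

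The genes whose pattern over the 8 libraries was most like the mean of the 7 were sought among 7426 genes with at least 10 FPKM in a library, by the root mean square distance of centred log2 values. The nearest were Car3 (0.116), the immunoglobulin genes Ighv7-3 (0.129) and Igkv1-110 (0.167), Retnla (0.172), Inmt (0.181), Ccl6 (0.182), Igkv4-91 (0.204) and Pdlim3 (0.206). Car3 had 88.5 and 28.6 scaled FPKM in fresh bile duct and fresh pancreatic duct and was at 0 in every organoid. The members themselves lay 0.490 (H2-Ab1) to 1.37 (Cd74) from their mean, because their amplitudes differ. With only 2 libraries setting the pattern, the list is a description.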

How the data were processed

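The authors deposited 1 table of FPKM for 31228 genes and 8 libraries, and the unit was read from the values. Per the submitters' processing notes, Bowtie2 2.2.3, HISAT2 2.1.0, TopHat2 and HTSeq 0.6.0 were used. Whether counting used strand is not given in the sources used here. Multiplied by exon length in GENCODE M21, values of 28268 genes (90.5%) were whole reads in all libraries within 0.05 of a read. For 2495 others, the members included, the shortest length giving whole reads within 0.02 was used. FPKM were scaled by a trimmed mean of log ratios (30% and 5% trims) over 8 libraries, or over the organoids for their comparison. log2(scaled FPKM + 1) was tested with limma 3.58.1 (R 4.3.3, trend) over all genes passing the filter, with Benjamini-Hochberg adjustment and a threshold of 0.05. The fit was also run on values simulated from its own means and residual spread, which cannot check whether the model holds. Filters were 1 FPKM in at least 2 of the 8 libraries or 3 organoids. Counting intervals (95%) are conditional Clopper-Pearson intervals of read ratios. Promoter sequences are from RefSeq (GRCm38.p6), which matched H2-Aa, H2-Eb1, H2-DMb1, H2-DMa and Cd74 by symbol. The windows of H2-DMa lie far upstream of its deposited start and are not shown, nor is that of Cd74.

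The members and lists were chosen with earlier results of these data known. Named genes are all members, and from each of the 4 pathway lists the 3 highest in the epithelia and the 3 highest in the organoids. Other list genes and markers that are named (Ctss, Irf8, Ifng, Cxcl9, Cd40, Ptprc, Rfx5, Rfxank, Epcam and the like) were picked after their values were seen. Some list genes enter the counts and sums but are not reported here by name. Alternatives varied the scaling, pseudocount, filter, trend, test (limma voom on recovered reads), the replicate number as a block and each library in turn.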

Additional observations from a re-analysis of the deposited data

How the results depend on the processing

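H2-DMa, the member that did not depend on the epithelia to pass the filter, stayed higher in the epithelia at an adjusted p under 0.05 in every alternative. The other 6 did so wherever they were tested, but under a filter their calls were fixed and show no stability. Differences on the log2 scale ranged from 2.06 to 8.77 for Ciita, 5.70 to 12.0 for H2-Aa, 4.71 to 9.89 for H2-Ab1, 2.84 to 6.43 for H2-DMb1 and 3.04 to 4.55 for H2-DMa. In each of these the lowest value was that without bile duct epithelium and the highest that of limma voom on reads. The number of members called fell from 7 to 1 without bile duct epithelium or without pancreatic duct epithelium, because H2-DMa alone then passed the filter, and was 7 with no filter (both settings added after seeing the data). A filter of 5 FPKM left 6 tested and 6 called, without Ciita. The number of genes called between epithelia and organoids was 8838 and ranged from 4388 to 9193 when 1 library was left out, with 4737 without bile duct epithelium and 4388 without pancreatic duct epithelium. The median of all genes was -0.12 with the scaling used, -0.23 with deposited FPKM and 0.04 with median ratios. Between the organoid groups the number of genes called was 0 and ranged from 0 to 11 when 1 organoid was left out, 11 without pancreatic duct organoid 3, 10 of them higher in pancreatic duct and no member among them. Replicate numbers did not pair the organoids (correlations of same-numbered deviations -0.10, -0.44 and 0.48), and with the replicate block 0 genes were called and 293 had an unadjusted p under 0.05. The exact permutation p of a member was at least 0.2 in every setting, in a design that cannot go below 0.1. The 5 members at least 2-fold apart between the epithelia stayed 5 under each scaling and pseudocount tried. Among genes of the other lists that still passed the filter, 6 lost their call without bile duct epithelium and 8 without pancreatic duct epithelium. Depth limits the organoid values, where 3 reads correspond to 0.0769 to 0.104 FPKM for H2-Aa.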
